A study of Homo sapiens with 12 samples.

Results

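The IL6-family cytokines and receptors were followed through replicative ageing of IMR-90 cells, an established line of human lung fibroblasts, at 2 oxygen levels. The members were the ligands IL6, LIF, IL11 and CLCF1, the receptor chains IL6R, LIFR, OSMR and IL6ST, and the feedback inhibitor SOCS3. They were taken as the array probe sets that name only that gene. Probe sets for 8 of the 9 genes were used, 26 probe sets of 54675 and 8 genes of the 19775 tested; CLCF1 was not analysed here. IL6 and LIF each had 1 probe set, IL11 had 2, IL6R and OSMR 3 each, SOCS3 4, LIFR 5 and IL6ST 7.

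RNA was measured on 12 Affymetrix arrays, 3 biological replicates in each of 4 groups. Young cells at population doubling 30 were grown under 20% or 3% oxygen, and senescent cells at doubling 48 under 20%. Old cells at doubling 53, labelled nonsenescent, were grown under 3%. All cells came from the 1 line, obtained at doubling 27, and were collected at 80% confluency. The oxygen levels had separate incubators, so oxygen and incubator cannot be told apart. The senescent and old cells differ in doublings and in the senescence label as well as in oxygen. The titles call the replicates biological without saying whether they came from separate cultures, and p-values measure only the spread between these arrays.

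IL6-family cytokines signal through gp130, the receptor chain encoded by IL6ST. IL6 and IL11 first bind their own receptor chains, IL6R and IL11RA, whereas LIF signals through LIFR paired with gp130, and oncostatin M through gp130 paired with OSMR or LIFR. The paired receptors activate JAK kinases and STAT3, and SOCS3, itself a STAT3 target, binds gp130 and shuts the signal down. In fibroblasts, IL6 is best known as a secreted factor of inflammation and of senescent cells, and IL11 as a factor made in response to TGF-beta.

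The start regions of IL6 and IL11 are shown because these ligands had the same order of groups in the arrays. They are RefSeq sequences of GRCh38.p14, from 250 bases before to 50 bases after the start of the gene, and 7 of the measured members had an entry. IL6 lies at chr7:22726950-22727249 on the plus strand and IL11 at chr19:55370414-55370713 on the minus strand. Capitals mark matches to 5 motifs searched on both strands: NF-kB, AP-1 (TGANTCA), C/EBP (TTGCNNAA), STAT (TTCNNNGAA) and the hypoxia response element (ACGTG).
IL6: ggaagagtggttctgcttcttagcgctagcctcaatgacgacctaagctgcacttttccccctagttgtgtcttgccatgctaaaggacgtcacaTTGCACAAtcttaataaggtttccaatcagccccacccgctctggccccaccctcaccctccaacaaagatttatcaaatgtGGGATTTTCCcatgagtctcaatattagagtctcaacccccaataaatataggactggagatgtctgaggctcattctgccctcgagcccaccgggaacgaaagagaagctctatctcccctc
IL11: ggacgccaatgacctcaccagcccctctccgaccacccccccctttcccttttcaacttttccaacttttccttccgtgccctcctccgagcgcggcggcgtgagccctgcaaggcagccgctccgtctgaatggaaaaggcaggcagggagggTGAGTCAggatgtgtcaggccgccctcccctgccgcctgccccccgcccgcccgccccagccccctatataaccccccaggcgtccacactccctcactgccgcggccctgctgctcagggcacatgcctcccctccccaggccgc
The IL6 sequence held a C/EBP match from -155 to -148 and an NF-kB match from -73 to -64, counted from the start. The IL11 sequence held an AP-1 match from -96 to -90, and none of these matches overlapped. Among 35116 promoters of the same length, 10.5% held the C/EBP motif, 11.3% the NF-kB motif and 7.71% the AP-1 motif. A match describes letters only and shows no binding.

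The values are assumed to be on a log2 scale, and each probe set was centred on its median over the 12 arrays. They show differences between arrays but no absolute level, so neither the presence of a gene nor the identity of the cells could be checked from them. Array medians lay between -0.02 and 0.05. Of the 15 fibroblast markers, 1 rose and 6 fell from young to senescent cells at 20% oxygen, where 12.5% of all genes were called. In young cells at 3% against 20%, 1 was higher and 6 lower (11.8% of all genes called). In old against senescent cells 2 were higher and 3 lower (11.0%), and in old against young cells at 3% 1 was lower (1.74%). The mean of the 15 markers lay at 0.23 to 0.28 in the young arrays at 20% and at -0.14 to 0.01 in the other 3 groups. None of 11 immune markers was called in any comparison, with at most 1 at an unadjusted p under 0.05 by limma. Of 10 smooth muscle and pericyte markers, 1 rose and 2 fell from young to senescent cells at 20%. In young cells at 3% against 20%, 2 rose and 2 fell, and in old against senescent cells 1 was higher and 2 lower. Of 11 endothelial markers, 1 was called lower in each of these comparisons and in old against young cells at 3%. It was FLT1 in the first 2 (log2 difference -0.66 and -1.32). Of 12 epithelial markers, only KRT19 was called, in young cells at 3% against 20% (-0.92). The 3' minus 5' signal of ACTB, a sign of RNA quality, ran from -0.22 to 0.71 and was highest in young 3% replicate 2. The part of the marker shifts in the results below was not tested. With the ACTB signal as a covariate, the counts of members called were 4 in senescent against young cells at 20%, 1 in old against young cells at 3%, 3 in young cells at 3% against 20% and 3 in old against senescent cells. In bulk RNA, fewer cells making a transcript and less transcript per cell cannot be told apart.

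**Figure D1:**
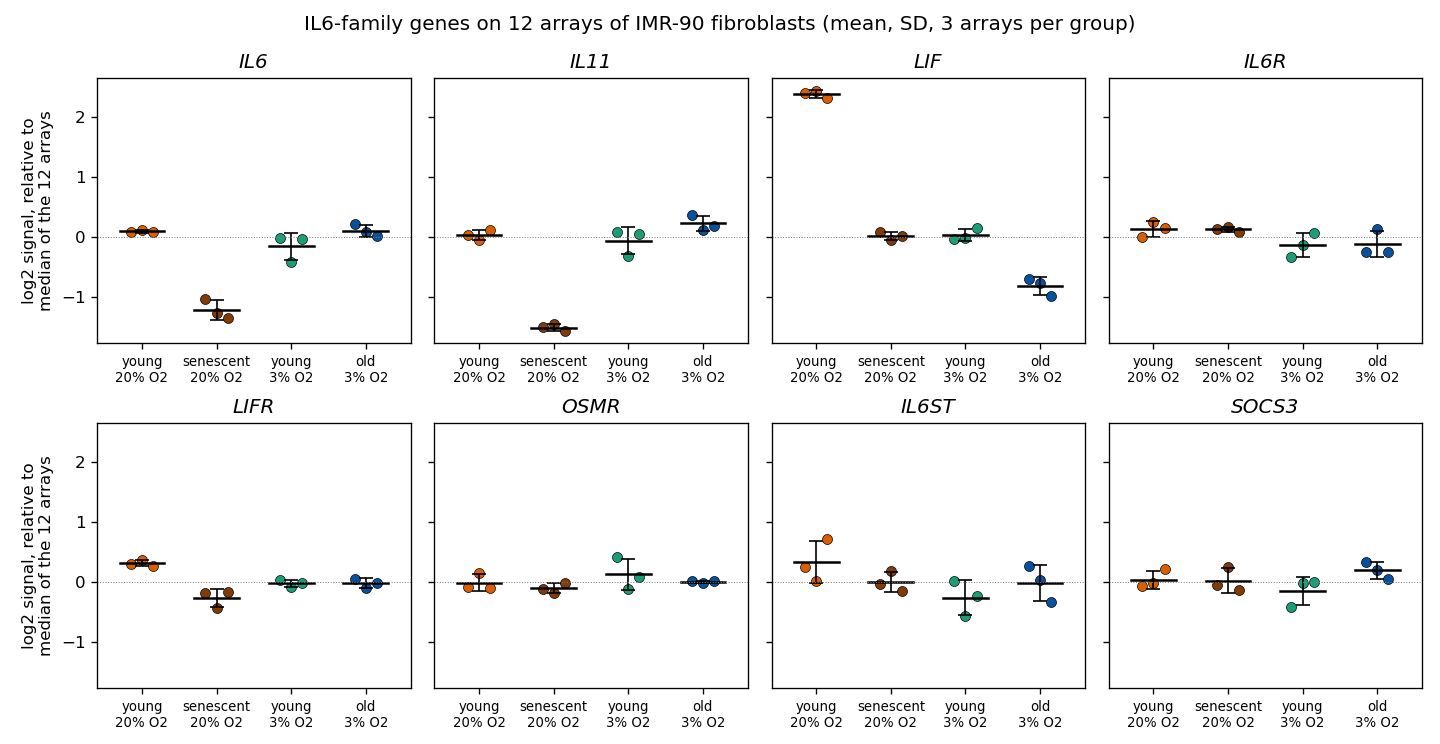
Log2 signal of the 8 measured members on each array, relative to the median of the 12 arrays, in the 4 groups; points are arrays, with group means and SDs. IL6 and IL11 were lowest in all 3 senescent arrays, and LIF was highest in all 3 young arrays at 20% oxygen.

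IL6, the ligand that gives the family its name, was low in senescent cells and nowhere else. Its values were 0.08, 0.09 and 0.12 in young cells at 20% oxygen and -1.35, -1.26 and -1.04 in senescent cells. At 3% oxygen they were -0.41, -0.03 and -0.01 in young cells and 0.01, 0.09 and 0.22 in old cells. All 3 senescent arrays lay below the other 9. Senescent cells had 2.48-fold less IL6 signal than young cells at 20% oxygen (log2 difference -1.31 ± 0.12 (SE), 95% interval -1.58 to -1.05, adjusted p = 1.64e-05, 3 arrays per group). Old cells at 3% oxygen had 2.50-fold more than senescent cells (1.32 ± 0.12, adjusted p = 1e-05). Old and young cells at 3% did not overlap, but the difference of 0.26 ± 0.12 did not pass the test (adjusted p = 0.362).

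IL11, a cytokine linked to fibroblast activation, followed the same pattern. It lay at -0.05, 0.04 and 0.12 in young cells at 20% and at -1.57, -1.50 and -1.45 in senescent cells. At 3% oxygen it lay at -0.31, 0.05 and 0.09 in young cells and at 0.12, 0.19 and 0.37 in old cells. Again every senescent array was below the other 9. The senescent signal was 2.92-fold below that of young cells at 20% (-1.54 ± 0.12, adjusted p = 2.91e-06) and 3.33-fold below that of old cells at 3% (1.73 ± 0.12 for old minus senescent, adjusted p = 5.37e-07). Both IL11 probe sets fell in senescent against young cells, 206924_at by 1.78 ± 0.15 and 206926_s_at by 1.31 ± 0.13. Old against young cells at 3% differed by 0.28 ± 0.12 without overlap, which did not pass the test (adjusted p = 0.309).

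LIF, a ligand that signals through LIFR, differed most among the members, and its order of groups was another. It lay at 2.31, 2.40 and 2.43 in young cells at 20% and at -0.04, 0.02 and 0.08 in senescent cells. In young cells at 3% it lay at -0.03, -0.02 and 0.15, and in old cells at -0.99, -0.76 and -0.70. Young cells at 20% were above every other array, old cells at 3% were below every other array, and the senescent and young 3% arrays overlapped. At 20% oxygen, LIF was 5.14-fold lower in senescent cells than in young ones (-2.36 ± 0.10, adjusted p = 1.7e-08) and 5.09-fold lower in young cells at 3% than at 20% (-2.35 ± 0.10, adjusted p = 2.75e-08). These comparisons share the young 20% arrays. Old cells at 3% were 1.80-fold below young cells at 3% (-0.85 ± 0.10, adjusted p = 0.000522) and 1.78-fold below senescent cells (-0.83 ± 0.10, adjusted p = 8.67e-05). With the arrays quantile normalized again, the first 2 differences shrank to -1.70 and -1.66 and stayed past the threshold. That step acted on the deposited values, already centred on each probe set's median, and not on raw signal.

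The 4 group means of LIF spanned 3.20 on the log2 scale, which ranked 27 among 19775 genes. The span was 1.74 for IL11, at rank 284, and 1.32 for IL6, at rank 569. The other members spanned less than 0.60. For each of these ligands, the 3 genes that are not members with the smallest root mean square difference over the 12 arrays were taken. For IL6 these were PDE3A at 0.15, WHAMM at 0.16 and FKBP11 at 0.16, and for IL11 they were OXCT1 at 0.14, PDE3A at 0.17 and SMAD7 at 0.22. IL6 and IL11 differed from each other by 0.18. LIF was less closely matched, by RNF128 at 0.29, MFAP4 at 0.31 and SERPINF1 at 0.33, and it differed from IL6 by 1.20.

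LIFR, the receptor chain for LIF, was highest in young cells at 20% oxygen. Its values were 0.27, 0.30 and 0.36 there, -0.43, -0.18 and -0.17 in senescent cells, -0.08, -0.01 and 0.04 in young cells at 3%, and -0.11, -0.01 and 0.06 in old cells. The young 20% arrays lay above all others and the senescent arrays below all others, while both 3% groups overlapped. Senescent cells were 1.49-fold below young cells at 20% (-0.57 ± 0.10, adjusted p = 0.00147). Young cells at 3% were 1.26-fold below those at 20% (-0.33 ± 0.10, adjusted p = 0.041). That second call ended without any of the 3 young 20% arrays (adjusted p = 0.111, 0.137 and 0.0799 without replicates 1, 2 and 3) or any of the 3 young 3% arrays (0.0626, 0.116 and 0.0876), and without senescent replicate 1 (0.0549) or old replicate 2 (0.0512). The difference of old and senescent cells, 0.24 ± 0.10, did not pass the test (adjusted p = 0.159).

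The LIFR probe sets were unequal. In senescent against young cells at 20% oxygen, 205876_at fell by 0.95 ± 0.13, 225571_at by 0.79 and 225575_at by 0.69, whereas 227771_at and 229185_at did not pass the test. Probe set 205876_at lay between 0.61 and 0.90 in young cells at 20% and between -0.41 and 0.15 in all other arrays.

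IL6ST, which encodes the shared chain gp130, varied more between replicates than the ligands. It lay at 0.03, 0.25 and 0.71 in young cells at 20%, at -0.15, -0.03 and 0.18 in senescent cells, at -0.57, -0.23 and 0.02 in young cells at 3%, and at -0.33, 0.04 and 0.27 in old cells. The young groups did not overlap by a narrow margin, and the others did. No IL6ST comparison passed the test; the largest was young cells at 3% against 20%, -0.59 ± 0.20 (95% interval -1.03 to -0.15, adjusted p = 0.0862). It passed with quantile normalization (adjusted p = 0.0475), with array quality weights (0.0192) and with the ACTB signal as a covariate (0.0329). With array weights, senescent against young cells at 20% also passed (adjusted p = 0.0477, against 0.427).

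Of the 7 IL6ST probe sets, only 212196_at was called, over all 54613 probe sets that are not controls. It lay at 0.56, 0.79 and 0.89 in young cells at 20%, at -0.45, -0.14 and -0.11 in senescent cells, at -0.73, -0.32 and 0.10 in young cells at 3% and at -0.10, 0.12 and 0.15 in old cells. The young 20% arrays were above all others. Senescent cells were 1.97-fold lower than young cells at 20% (-0.98 ± 0.19, adjusted p = 0.00463), and young cells at 3% were lower than at 20% by -1.06 ± 0.19 (adjusted p = 0.00291).

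IL6R, the ligand-binding chain for IL6, had values from -0.34 to 0.25 over all arrays and passed no test. Senescent and young cells at 20% differed by -0.01 ± 0.13, with an interval of -0.28 to 0.28. Its probe set 226333_at alone was called: it lay at 0.17, 0.53 and 0.64 in young cells at 20% and at -0.64, -0.45 and -0.03 in young cells at 3%. That difference was -0.82 ± 0.18 (adjusted p = 0.0131), and it was lost without young 20% replicate 2 (0.0646) or 3 (0.0521) or young 3% replicate 1 (0.0562).

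OSMR, the oncostatin M receptor chain, lay between -0.18 and 0.41 and passed no test as a gene. The interval for senescent minus young cells at 20% was -0.37 to 0.18. Probe set 226621_at lay at -0.01, 0.07 and 0.08 in young cells at 20%, at -0.57, -0.43 and -0.31 in senescent cells, at -0.10, -0.04 and 0.01 in young cells at 3%, and at 0.07, 0.08 and 0.10 in old cells. Its senescent arrays lay below all others, as those of IL6 and IL11 did. It fell by 0.48 ± 0.10 in senescent against young cells (adjusted p = 0.00692) and was higher by 0.52 in old than in senescent cells (adjusted p = 0.00516). The other OSMR probe sets, 1554008_at and 205729_at, were not called.

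SOCS3 showed no called difference as a gene. Senescent and young cells at 20% differed by -0.02 ± 0.14, with an interval of -0.33 to 0.29. Old cells at 3% lay at 0.06, 0.20 and 0.33, above the young 3% arrays at -0.41, -0.01 and 0.00, but the difference of 0.34 ± 0.14 did not pass the test (adjusted p = 0.32). Probe set 227697_at lay at -0.34, -0.25 and -0.16 in senescent cells and at 0.24, 0.26 and 0.51 in old cells, a difference of 0.58 ± 0.12 (adjusted p = 0.00839). The other SOCS3 probe sets, 206359_at, 206360_s_at and 214105_at, were not called. They differed by 0.11, 0.12 and -0.11 in old minus senescent cells.

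**Figure D2:**
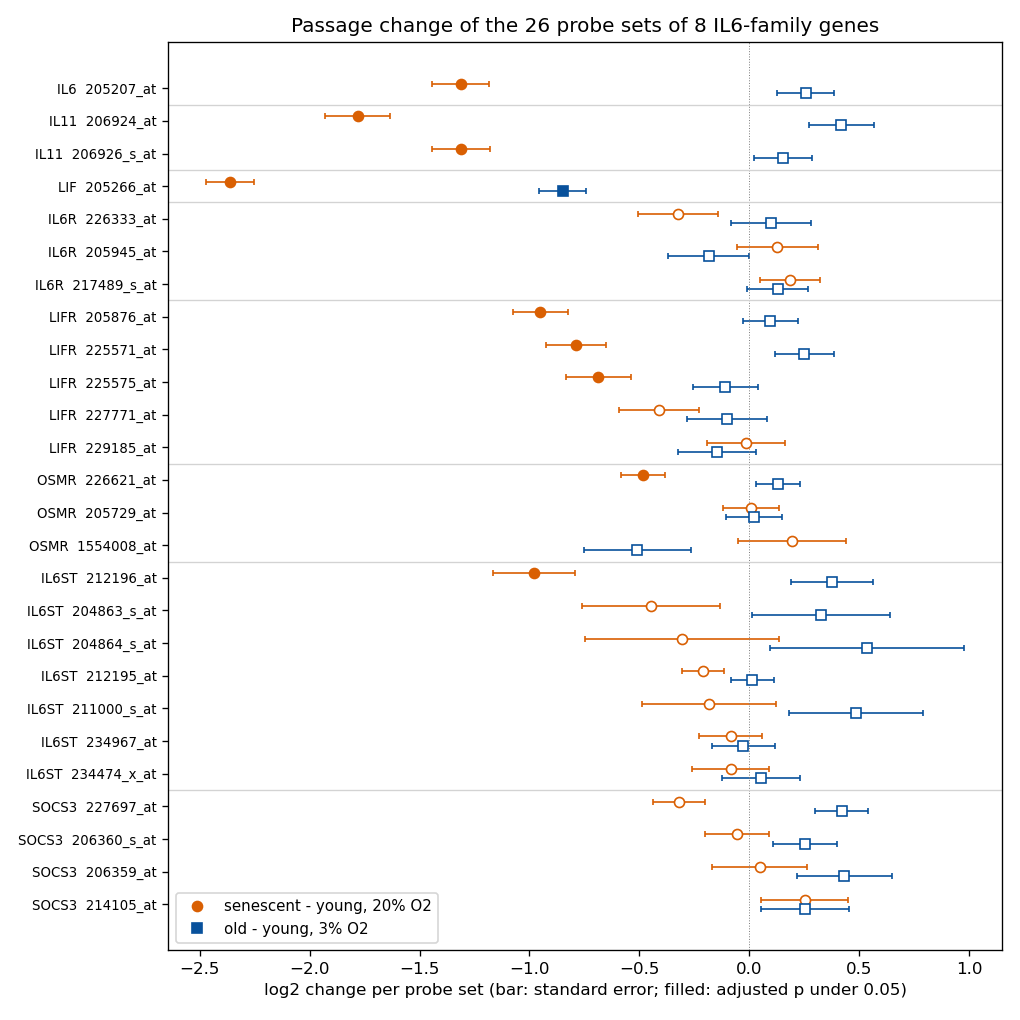
Log2 change of each of the 26 member probe sets, with standard errors as bars and filled points for adjusted p under 0.05, in senescent minus young cells at 20% oxygen and in old minus young cells at 3%. IL6, both IL11 probe sets and LIF fell at 20% oxygen, while only LIF passed the test at 3%.

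Over the 8 measured members, 4 were called lower and 0 higher in senescent cells than in young ones at 20% oxygen. Of all genes 12.5% were called there, 4.67% higher and 7.84% lower. The median change of the members was -0.45 and that of all genes 0.04. In old against young cells at 3% oxygen, LIF alone was called, lower, with 1.74% of all genes called, 0.981% higher and 0.759% lower. In young cells at 3% against 20%, LIF and LIFR were lower, with 11.8% of genes called, 4.96% higher and 6.84% lower. In old cells at 3% against senescent cells at 20%, IL6 and IL11 were higher and LIF lower, with 11.0% of genes called, 6.59% higher and 4.41% lower.

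Among single probe sets, 9 of 26 were called in senescent against young cells at 20% oxygen (background 9.46%), 1 in old against young cells at 3% (0.941%), 4 in young cells at 3% against 20% (8.55%) and 7 in old against senescent cells (7.73%). Probe sets of 1 gene share their transcript and are not replicates. Of the 24 neighbouring pairs of groups in the order of the members' means, 5 differed: young 3% above senescent cells for IL6 and IL11, young 20% above young 3% cells for LIF and LIFR, and senescent above old cells for LIF. Young 3% against senescent cells called 10.9% of all genes, and old 3% against young 20% cells called 13.3%.

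Whether the change with passage differed between oxygen levels was tested as an interaction, the change at 20% minus the change at 3%. The interaction passed for IL6, LIF, IL11 and LIFR, 4 of 8 members, all in the negative direction, with 6.44% of all genes called, 2.06% positive and 4.37% negative. Of the member probe sets 9 of 26 passed, with 4.84% of all probe sets. The difference was -1.57 ± 0.17 for IL6 (adjusted p = 0.000142), -1.83 ± 0.16 for IL11 (adjusted p = 3.02e-05) and -1.51 ± 0.14 for LIF (adjusted p = 3.41e-05). After quantile normalization the LIF value was -0.73, which passed over genes (adjusted p = 0.031) but not for its 1 probe set over all probe sets (0.0535). For LIFR it was -0.57 ± 0.13 (adjusted p = 0.0241). That call ended without young 20% replicate 1 (0.0626) or 2 (0.0662), senescent replicate 2 (0.0513), young 3% replicate 2 (0.0545) or old replicate 1 (0.0612). It also ended with the median of the LIFR probe sets (-0.43, adjusted p = 0.174 by limma) and at a threshold of 0.01. Its probe sets 205876_at and 225571_at passed, and 225575_at, 227771_at and 229185_at did not. IL6 and IL11 fell with passage at 20% and did not pass the test at 3%, whereas LIF fell at both levels and by more at 20%.

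**Figure D3:**
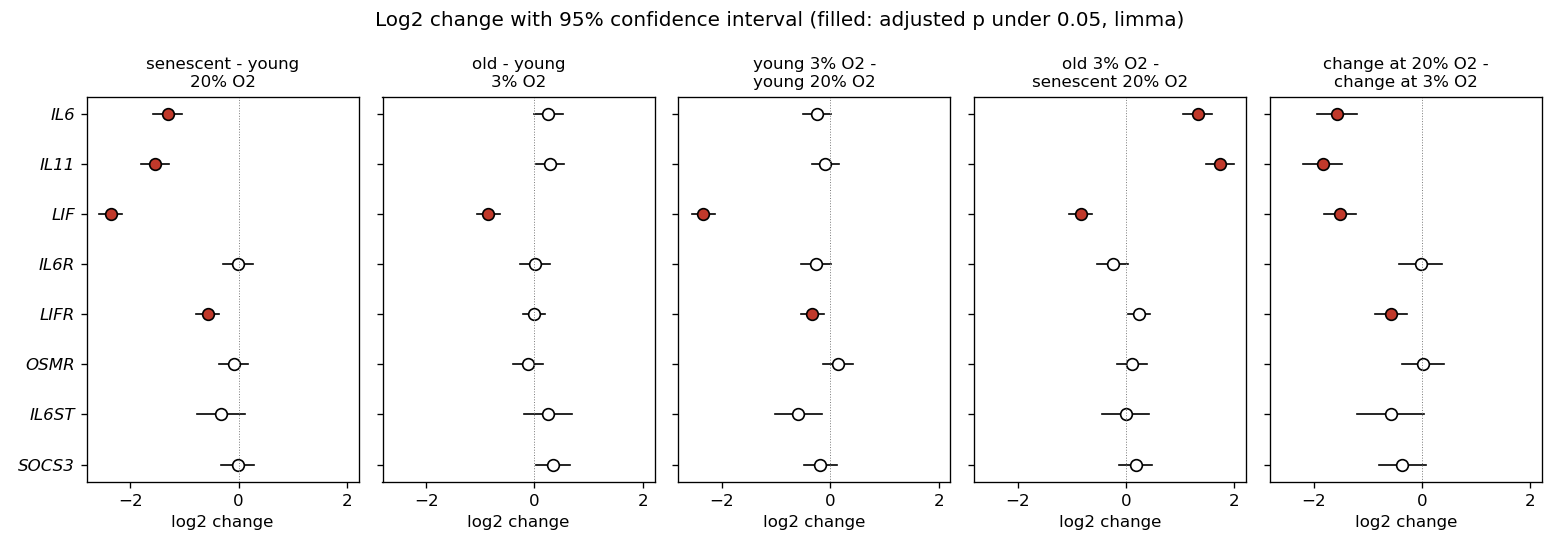
Log2 changes of the 8 members with 95% intervals in each comparison; filled points passed an adjusted p under 0.05. IL6 and IL11 lie below 0 for senescent minus young cells at 20% oxygen and above 0 for old cells at 3% minus senescent cells, and LIF lies below 0 in all 5 comparisons.

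None of the 9 measured genes among 11 other family ligands and receptors was called in any of the 5 comparisons by limma, and at most 1 had an unadjusted p under 0.05. IL11RA, the IL11 receptor chain, differed by -0.25 ± 0.10 between senescent and young cells at 20% (adjusted p = 0.127). Of 21 measured genes of JAK-STAT signalling, 1 rose and 2 fell in senescent against young cells at 20%, with a median change of 0.00 and 12.5% of all genes called. SOCS2, a feedback inhibitor related to SOCS3, rose by 0.75 ± 0.09 there (adjusted p = 0.000151), but its 3 probe sets ranged from 0.29 to 1.47 and only 1 was called. The genes that fell were SOCS4 (-0.50 ± 0.10, adjusted p = 0.00495) and SOCS5 (-0.46 ± 0.10, adjusted p = 0.00789), each with 1 probe set called. SOCS2 was higher by 1.79 ± 0.09 in young cells at 3% than at 20% (adjusted p = 9.19e-08), with all 3 probe sets called, from 0.66 to 2.67. STAT3 itself differed by 0.00 ± 0.12 in the first comparison (adjusted p = 0.999).

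Of 28 measured STAT3 target genes, a list that also holds LIFR and OSMR, 4 rose and 7 fell in senescent against young cells at 20%, against 12.5% of all genes called. In young cells at 3% against 20%, 3 rose and 10 fell, against 11.8%. FOS, an immediate early transcription factor, fell by 2.98 ± 0.20 in the first comparison (adjusted p = 1.11e-06) and fell by 2.74 ± 0.20 in the second. ZFP36, which speeds decay of cytokine mRNAs, fell by 1.82 ± 0.19 (adjusted p = 3.94e-05) and fell by 1.81 ± 0.19. PIM1, a kinase gene, rose by 0.92 ± 0.13 and by 1.29 ± 0.13. FOS and ZFP36 were, like LIF, above all other arrays in the young 20% group.

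Of 27 regulators of IL6 and LIF transcription, 2 rose and 4 fell in senescent against young cells at 20%, with 12.5% of all genes called, and 4 fell in old against young cells at 3%, with 1.74% called. JUN, an AP-1 subunit, was lower in young cells at 3% than at 20% (log2 difference -0.69 ± 0.08, adjusted p = 8.95e-05) and was lowest in old cells, at -0.82 to -0.73. CEBPD, a C/EBP factor, rose by 0.70 ± 0.12 in senescent against young cells (adjusted p = 0.00184), but only 1 of its 2 probe sets was called, at 1.22 against 0.18. Of 13 measured regulators of mRNA stability, 0 rose and 3 fell in senescent against young cells at 20% (12.5% of all genes called), ZFP36 among them.

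Of 17 measured upstream inducers and their receptors, 1 rose and 4 fell in senescent against young cells at 20% oxygen, with 12.5% of all genes called. IL1R1, the receptor for interleukin-1, was 2.39-fold lower (-1.26 ± 0.12, adjusted p = 1.94e-05), with both probe sets called, at -1.74 and -0.77. PTGER2, a prostaglandin receptor, was 1.93-fold lower (-0.94 ± 0.13, adjusted p = 0.000392). The gene that rose was PTGER4 (0.38 ± 0.10, adjusted p = 0.0283). PTGS2, which makes prostaglandins, was lower in senescent than in young cells by a log2 difference of -1.18 ± 0.19 (adjusted p = 0.00135), but only 1 of its 2 probe sets was called, at -1.85 against -0.50. It was 16.1-fold higher in old cells at 3% than in senescent cells (4.01 ± 0.19, adjusted p = 3.65e-08), with both probe sets called, at log2 differences of 3.05 and 4.97.

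IL1B, an inducer of IL6 and LIF, lay at -1.02, -0.86 and -0.64 in young cells at 20%, at -1.29, -1.21 and -0.68 in senescent cells, at 0.71, 0.86 and 0.94 in young cells at 3% and at 1.65, 1.89 and 2.25 in old cells. All 6 arrays at 3% oxygen were above the 6 at 20%. It was 7.95-fold higher in old than in senescent cells (2.99 ± 0.18, adjusted p = 2.01e-07).

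Of 7 genes of receptor shedding, a list that holds IL6R and IL6ST, 2 rose and 1 fell in senescent against young cells at 20% (12.5% of all genes called). ADAM10 rose by 0.48 ± 0.13 (adjusted p = 0.027 by limma), but 0 of its 3 probe sets were called. RHBDF2, a partner of the shedding protease ADAM17, rose by 0.72 ± 0.13 (adjusted p = 0.0031). TIMP3, an inhibitor of such proteases, was lower by a log2 difference of -0.55 ± 0.09 (adjusted p = 0.00143), and ADAM17 differed by 0.20 ± 0.10 (adjusted p = 0.282).

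**Figure D4:**
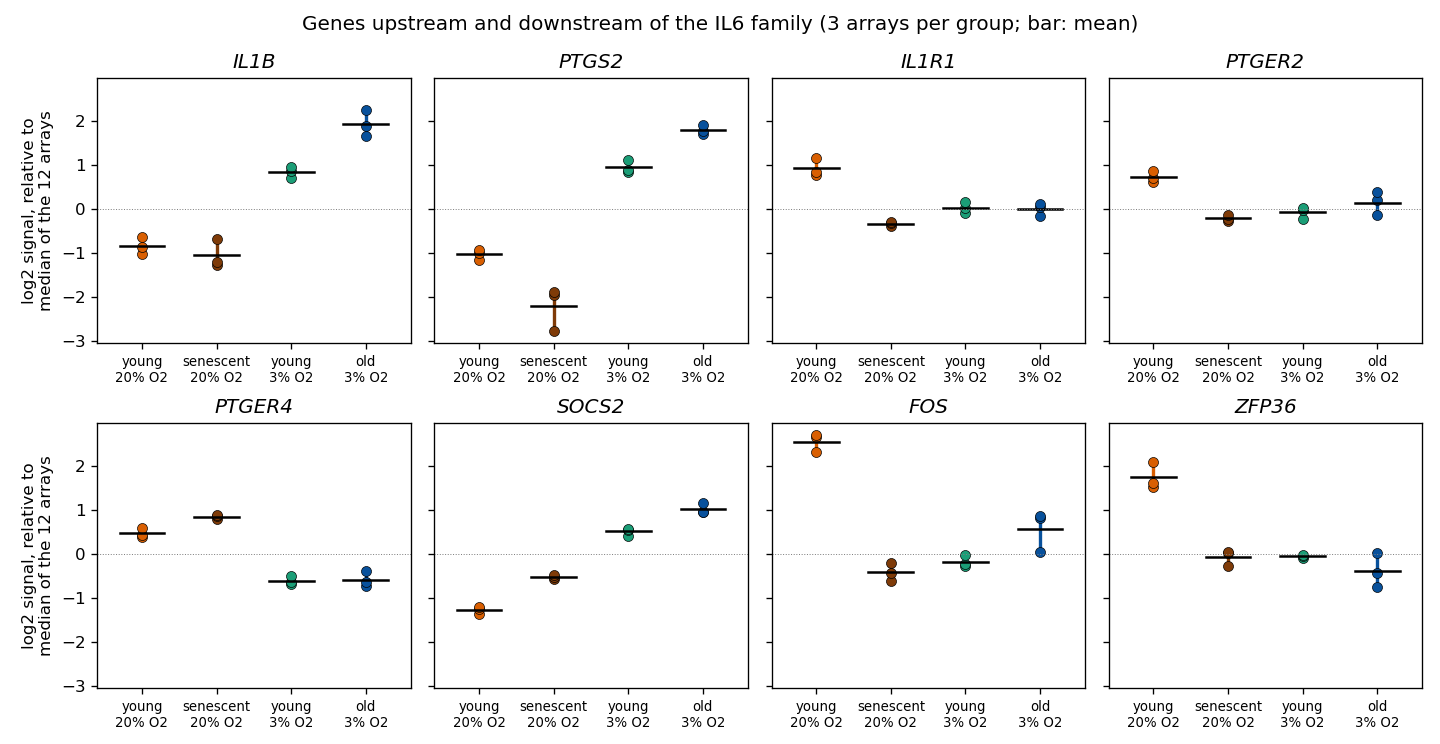
Log2 signal per array of 8 genes upstream and downstream of the family, relative to the median of the 12 arrays; bars are group means. IL1B and PTGS2 were higher in all 3% arrays than in all 20% arrays, and FOS and ZFP36 were highest in young cells at 20% oxygen.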

How the data were processed

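RNA of 12 arrays in 4 groups of 3 was analysed, grouped by sample titles. The authors deposited values made with RMA, per the submitters' processing notes. The version and the log base are not given in the sources used here; the deposited values were taken as log2 and were found to be centred on each probe set's median. Of 54675 probe sets, 41091 named 1 gene, 1801 several, 11721 none, and 62 were controls. Entrez IDs gave current RefSeq symbols for 41037. A gene's value was the mean of its probe sets, with members' probe sets also reported singly, and the range of probe sets given for other named genes where it exceeded 1.5-fold.

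Differences were tested by lmFit and eBayes of limma 3.58.1 (R 4.3.3) over all 12 arrays, with Benjamini-Hochberg adjustment over 19775 genes or over 54613 probe sets, and called at an adjusted p under 0.05. The fit was tested on simulated data. The precision is limited by the 3 arrays per group. Named genes were all members, the 3 non-member genes most like each member whose group means spanned at least 1, and listed pathway genes with large called changes. STAT3, IL11RA and ADAM17 were named after their values were seen. Members and lists were chosen with earlier results of these data known. Deviations of same-numbered senescent and old arrays were positively correlated (0.129, 0.519 and 0.669). Every other pair of groups held a negative value, though single values reached 0.43 (young 20% and young 3% replicate 3). The titles name no shared batch, so whether the numbers pair is not known. Alternatives covered the summary of probe sets, normalization, array weights, filters, the test, a replicate block and leaving out each array. CLCF1 was not analysed here.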

Additional observations from a re-analysis of the deposited data

Results flagged for a closer look

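The change with passage at 20% oxygen, to senescent cells, differed from the change at 3%, to old nonsenescent cells, by the interaction test for these members. The difference was -1.57 for IL6, -1.83 for IL11, -1.51 for LIF and -0.57 for LIFR. Among single probe sets of the other members, those that passed were IL6ST 212196_at at -1.35, OSMR 226621_at at -0.61 and SOCS3 227697_at at -0.74. No other probe set of these genes passed, and OSMR 1554008_at had the opposite sign, at 0.70 ± 0.34. As genes they did not pass by limma: -0.58 for IL6ST (adjusted p = 0.318), 0.03 for OSMR (0.958) and -0.36 for SOCS3 (0.391). The value of IL6ST 212196_at still passed when each of the 12 arrays was left out in turn. The OSMR call (adjusted p = 0.0244) ended without young 20% replicate 1 (0.0752) or 3 (0.0588), senescent replicate 2 (0.0521) or 3 (0.0699), young 3% replicate 2 (0.052) or 3 (0.0512), or old replicate 1 (0.0519) or 2 (0.0595). The SOCS3 call (adjusted p = 0.0248) ended without young 20% replicate 2 (0.0678) or 3 (0.0573), senescent replicate 1 (0.0573) or 2 (0.0618), young 3% replicate 1 (0.0533) or 3 (0.0532), or old replicate 1 (0.0631).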

How the results depend on the processing

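The counts of members called in senescent against young cells at 20% (4), in old against senescent cells (3) and in the interaction (4) stayed within 1.5 times under every alternative run. They ranged from 3 to 5, from 2 to 3 and from 3 to 4, in that order. LIFR dropped out of the interaction with the median of its probe sets and at an adjusted p under 0.01, among other alternatives. The count in young cells at 3% against 20% fell from 2 to 1, through LIFR, with the median of the probe sets. It fell likewise with the median change and median adjusted p over single probe sets, a summary and not a test. The same fall came with arrays centred on their medians, with only the groups compared and with flat genes left out. An adjusted p under 0.01 and a minimum log2 change of 1 also gave 1, and leaving out arrays gave 1 to 2. The count rose to 3 with quantile normalization, array weights and the ACTB covariate, through IL6ST, and with the probe set of largest SD, through IL6R. Array weights called 3442 of all genes there, against 2333 in the main fit. A minimum change of 1 took the count in old against young cells at 3% from 1 to 0 and the count of differing neighbours in the order from 5 to 3. With a replicate block the counts were 4, 1, 2, 3 and 4 in the 5 comparisons and 5 in the order; the block of senescent and old arrays alone, added after seeing the data, gave 3, and no member's call changed. Leaving out arrays for single probe sets was also added after seeing the data.

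Signs turned only for differences that did not pass the test, and the cause was not tested. With the probe set of largest SD these were OSMR at 0.19 and SOCS3 at 0.046 (senescent minus young, 20%), LIFR at 0.10 (old minus young, 3%), and IL6ST at 0.22 and OSMR at -0.30 (old minus senescent). With the median of probe sets, IL6R was 0.031, -0.062 and 0.093 at 20%, at 3% and in the interaction, and SOCS3 was 0.037 at 20%. By the median change over a gene's single probe sets, IL6R was 0.13 at 20% and 0.054 in the interaction. By the same median OSMR was 0.008 at 20%, 0.02 at 3% and -0.013 in the interaction. Quantile normalization gave IL6R -0.078 at 3% and 0.075 in the interaction, and median centring gave -0.002 at 3%. Array weights gave IL6R 0.084 at 20% and 0.045 in the interaction, and IL6ST 0.07 for old minus senescent cells. Leaving out arrays gave IL11 -0.17 to 0.032 and OSMR -0.003 to 0.26 for young cells at 3% minus 20%; IL6R -0.073 to 0.051 and SOCS3 -0.14 to 0.065 at 20%; IL6R -0.11 to 0.11, LIFR -0.042 to 0.04 and OSMR -0.24 to 0.022 at 3%; IL6ST -0.15 to 0.15 for old minus senescent cells; and IL6R -0.12 to 0.10 and OSMR -0.12 to 0.15 in the interaction. IL6 and LIF rest on 1 probe set each, and centring leaves signal over background unknown.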
